A study of Mus musculus with 12 samples.

Results

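The 7 globin genes Hbb-bt, Hbb-bs, Hbb-bh1, Hbb-y, Hba-a1, Hba-a2 and Hba-x, the α-globin chaperone gene Ahsp, and the 2 regulators of globin switching Bcl11a and Sox6 were followed by gene symbol through RNA-Seq read counts of mouse bone marrow PreMegEs, the progenitors that give rise to megakaryocytes and to erythroid cells. Of these 10 genes, 9 were found among the 41128 genes of the count table, and Ahsp was not analysed here. All mice were C57BL/6, aged 12 to 16 weeks, and each of the 4 groups had 3 libraries, each from the pooled bone marrow of 3 mice. WT PreMegEs came from wild type mice and held the whole PreMegE gate. P2+ and P2- PreMegEs were the hCD4 positive and hCD4 negative cells of Runx1 P1-GFP::P2-hCD4/+ mice, in which 1 Runx1 allele reports the distal promoter P1 through GFP and the proximal promoter P2 through hCD4, so that allele is shared by both reporter groups and absent from WT. KO PreMegEs came from mice with the RUNX1C knockout, which lack the protein made from P1. In the paper this knockout is the P1-GFP homozygous mouse. The paper's RNA-Seq results cover WT, P2+ and P2- PreMegEs only, and whether the KO libraries were made alongside WT is not stated. The gate excluded cells with lineage antigens, among them Ter119 of red cells, GR1 and CD11B of granulocytes and monocytes, B220 of B cells and CD3 of T cells.

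Haemoglobin is built from pairs of α-type and β-type globin chains. The genes for each type lie in a cluster, with those used in the embryo upstream of those used in the adult. Hba-x, Hbb-y and Hbb-bh1 serve the primitive red cells of the embryo, whereas Hba-a1, Hba-a2, Hbb-bs and Hbb-bt serve definitive red cells. BCL11A, a zinc finger repressor, and SOX6, an HMG box protein of the SoxD family that binds DNA beside it, silence the embryonic β-type genes in definitive erythroid cells. Globin mRNA accumulates late in erythroid maturation, after the progenitor stage, while genes of the regulators are also active earlier.

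Library totals lay between 10726098 and 14445026 counts, and the limit set by 3 counts lay between 0.207 and 0.288 CPM (each count divided by its TMM-adjusted library total), which covers counting error only. Among transcripts of antigens the gate selected for, Kit was at 732 to 1156 CPM and Slamf1 (CD150) at 34.1 to 65.5 CPM. Itga2b encodes CD41, an antigen whose positive cells the gate left out. Its transcript was at 38.7 to 61.5 CPM in P2- and 111 to 122 CPM in KO libraries. In WT libraries it was at 139.9 to 169 CPM and in P2+ libraries at 253 to 320.4 CPM. The progenitor transcription factor gene Gata2 was at 882 to 1210 CPM, and the T cell transcript Cd3d was at 0 in 11 of 12 libraries. Runx1 itself stood at 357 to 387 CPM in WT, 341 to 381 CPM in KO, 202 to 217 CPM in P2- and 613 to 659 CPM in P2+ PreMegEs. These gene-level counts add the products of both promoters, so they do not check the loss of RUNX1C. The libraries P2- replicate 2 and P2+ replicate 2 stood apart from the others of their groups, with the mature neutrophil transcript S100a9 at 11.4 and 9.32 CPM against 0 to 2.23 CPM in the other 10 libraries, and the immediate early gene Fos, named after its values were seen, at 1326 and 903 CPM against 0.318 to 166 CPM.

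The β-type genes lie on the minus strand of chromosome 7 (GRCm38, GENCODE vM21), with Hbb-bt at chr7:103812524-103813996, Hbb-bs at chr7:103826534-103828096, Hbb-bh1 at chr7:103841637-103843164 and Hbb-y at chr7:103851749-103853216. The α-type genes lie on the plus strand of chromosome 11, with Hba-x at chr11:32276400-32278116, Hba-a1 at chr11:32283511-32284465 and Hba-a2 at chr11:32296489-32297298. Bcl11a (chr11:24078056-24174123, plus strand) and Sox6 (chr7:115470872-116038796, minus strand) are elsewhere on the same 2 chromosomes. Antisense genes overlap both regulators, and those measured here, 4930538E20Rik and Gm12064 at Bcl11a and Sox6os at Sox6, reached at most 0.422 CPM in any library.

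Promoter sequence of 4 globin genes is shown because it sets genes that gave counts here (Hbb-bs, Hbb-bt, Hba-a2) beside Hbb-y, which gave none. The windows come from RefSeq (GRCm38.p6), lie within the 120 bases before the RefSeq start and leave out bases that GENCODE marks as untranslated. They are written 5′ to 3′ on the strand of the gene, and capitals mark every whole match, on either strand, of the CACCC letters, the CCAAT box, the TATAA box, the GATA core or the letters TGACCA.
Hbb-bs, chr7:103827929-103828011, minus strand: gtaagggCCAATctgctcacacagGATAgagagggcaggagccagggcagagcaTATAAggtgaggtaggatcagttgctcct
Hbb-bt, chr7:103813997-103814043, minus strand: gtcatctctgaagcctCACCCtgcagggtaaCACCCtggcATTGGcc
Hbb-y, chr7:103853217-103853327, minus strand: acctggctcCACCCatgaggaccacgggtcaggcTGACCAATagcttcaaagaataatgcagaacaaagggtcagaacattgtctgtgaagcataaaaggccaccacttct
Hba-a2, chr11:32296372-32296488, plus strand: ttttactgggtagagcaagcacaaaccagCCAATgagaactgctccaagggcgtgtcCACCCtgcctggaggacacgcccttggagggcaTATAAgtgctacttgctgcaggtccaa

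Over the full 120 bases, CACCC, the core letters of the sites that KLF1 binds, was found in the windows of all 6 globin genes with a RefSeq entry and in 31.7% of all 32851 promoter windows. CCAAT was found in 5 of these 6 windows, all but that of Hba-x, and in 21.3% of all windows. TATAA was found in 5 of the 6, all but that of Hbb-y, and in 11.8% of all. TGACCA, the letters that BCL11A is known to bind, was found in the windows of the embryonic genes Hbb-y and Hba-x, in none of the 4 adult genes' windows, and in 5.56% of all windows. In Hbb-y it overlaps the CCAAT match, so both are drawn as 1 run of capitals. GATA was found in the windows of Hbb-bs and Hba-x and in 29.5% of all windows. The Hba-a1 and Hba-a2 windows share a run of 117 bases. These matches describe the letters of the windows only.

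The 2 adult β-globin genes were the most abundant globin transcripts in PreMegEs, at low levels that differed far more between libraries than between groups. Hbb-bs had 135, 134 and 158 counts in WT, 90, 204 and 123 in P2-, 88, 374 and 47 in P2+, and 85, 186 and 14 in KO replicates 1, 2 and 3. As CPM these were 9.36, 11.3 and 11.5 in WT, 7.16, 19.6 and 8.68 in P2-, 7.37, 25.8 and 3.58 in P2+, and 7.42, 15.9 and 1.27 in KO PreMegEs. The WT libraries thus lay within 1.23-fold of each other, whereas the P2+ libraries spanned 7.20-fold and the KO libraries 12.5-fold, and all 4 groups overlapped. Group means were 10.7 ± 1.19 CPM in WT, 11.8 ± 6.78 in P2-, 12.3 ± 11.9 in P2+ and 8.20 ± 7.35 in KO PreMegEs (SD, n = 3), and no neighbours in that order were separated by more than their spread.

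Hbb-bt, the second adult β-globin gene, had 23, 18 and 17 counts in WT, 12, 40 and 16 in P2-, 35, 103 and 12 in P2+, and 32, 27 and 9 in KO replicates 1, 2 and 3. These correspond to 1.59, 1.52 and 1.24 CPM in WT, 0.955, 3.84 and 1.13 in P2-, 2.93, 7.11 and 0.915 in P2+, and 2.79, 2.31 and 0.819 in KO PreMegEs. The highest library was again P2+ replicate 2 and the lowest again KO replicate 3, and the groups overlapped. Divided further by exon length (RPKM, computed here), Hbb-bs averaged 10.7 to 16.0 RPKM over the groups and Hbb-bt 2.06 to 5.19 RPKM.

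**Figure D1:**
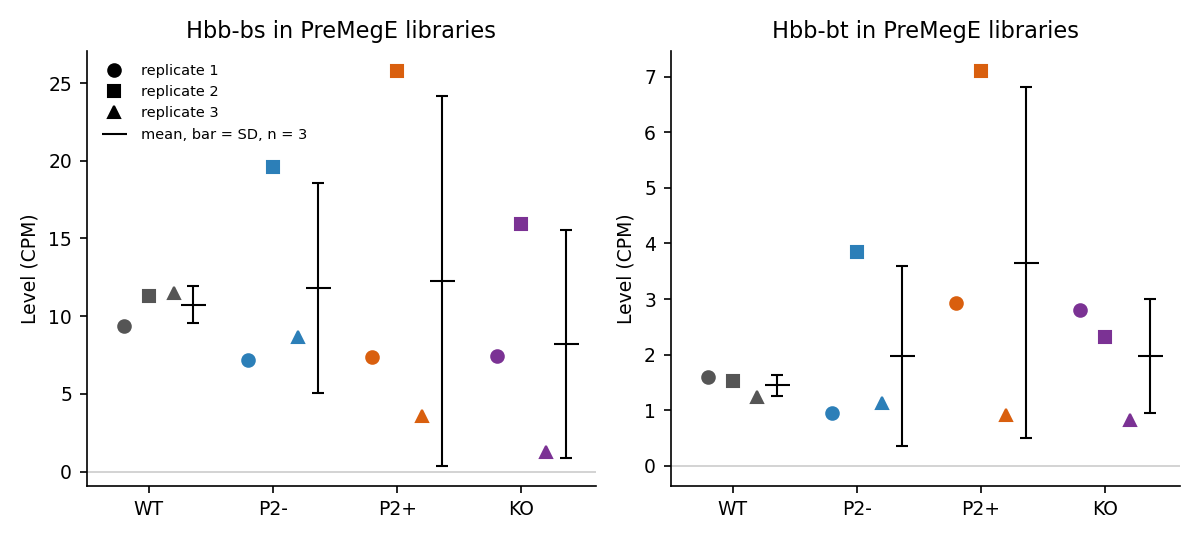
Level of Hbb-bs (left) and Hbb-bt (right) in CPM on the vertical axis for each PreMegE group on the horizontal axis; each symbol is 1 library (circle, square and triangle for replicates 1, 2 and 3) and the bar shows mean and SD, n = 3. The square of P2+ is the highest library for both genes (25.8 and 7.11 CPM) and the triangle of KO the lowest (1.27 and 0.819 CPM), while the WT libraries lie close together.

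None of the 4 comparisons found a difference in either adult β-globin gene with edgeR's quasi-likelihood test, the p-values being adjusted over all genes tested by the Benjamini-Hochberg method. For P2+ over P2-, Hbb-bs differed by 0.08 ± 0.65 on the log2 scale (SE; 95% confidence interval -1.39 to 1.55; adjusted p = 0.933) and Hbb-bt by 0.94 ± 0.75 (-0.76 to 2.63; adjusted p = 0.365). The reporter libraries with the same number deviated together across genes, so ratios are also given within each number. Hbb-bs was higher in P2+ in 2 of 3 pairs, at 1.03-fold, 1.32-fold and 0.413-fold for replicates 1, 2 and 3, and Hbb-bt in 2 of 3 pairs, at 3.07-fold, 1.85-fold and 0.810-fold. The direction for Hbb-bs was not stable, as its log2 fold change was -1.08 without P2+ replicate 2, -0.18 without P2- replicate 1 and -0.10 without P2- replicate 3 (adjusted p = 0.117, 0.878 and 0.935), and 0.65 without P2- replicate 2. Without both reporter libraries numbered 2, an alternative chosen after seeing the data, it was -0.51 (adjusted p = 0.270). With all 6 libraries and the replicate number as a block, which pairs them, it was -0.17 (adjusted p = 0.613). For Hbb-bt, leaving out 1 library gave from 0.0052 without P2+ replicate 2 to 1.82 without P2- replicate 2 (adjusted p = 0.997 and 0.0936).

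Against WT, Hbb-bt in P2+ PreMegEs had a log2 fold change of 1.35 ± 0.61 (95% confidence interval 0.00 to 2.69; adjusted p = 0.161), and P2+ replicates 1 and 2 lay above all WT libraries while replicate 3 lay below them. Without P2+ replicate 3 the log2 fold change was 1.80 with an adjusted p of 0.0265, and without P2+ replicate 2 it was 0.39 with an adjusted p of 0.658. Hbb-bs in the same comparison had a log2 fold change of 0.21 ± 0.53 (adjusted p = 0.828), which became -0.97 (adjusted p = 0.0341) without P2+ replicate 2. A single library therefore decided whether either gene passed the test and, for Hbb-bs, in which direction. Between P2- and WT PreMegEs the log2 fold changes were 0.13 ± 0.33 for Hbb-bs (adjusted p = 0.827) and 0.41 ± 0.54 for Hbb-bt (adjusted p = 0.660), and without P2- replicate 2 both were negative, at -0.44 and -0.47. Between KO and WT PreMegEs they were -0.39 ± 0.44 for Hbb-bs (adjusted p = 0.634) and 0.44 ± 0.45 for Hbb-bt (adjusted p = 0.591), and that of Hbb-bs was -1.30 (adjusted p = 0.0555) without KO replicate 2 and 0.12 (adjusted p = 0.857) without KO replicate 3. For Hbb-bt the value was 0.11 without KO replicate 1, 0.31 without KO replicate 2 and 0.80 without KO replicate 3.

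The balance of the 2 β-globin genes within each library was examined after the counts had been seen. Hbb-bt made up 20.3% to 28.5% of the joint Hbb-bs and Hbb-bt counts in the P2+ libraries, 11.5% to 16.4% in P2-, 9.71% to 14.6% in WT and 12.7% to 39.1% in KO PreMegEs. The P2+ libraries lay above all P2- and all WT libraries, by 10.2 and 11.4 percentage points on average, and the KO libraries overlapped with WT. No test is attached, since the share was chosen after the counts were seen. Counting error was wide where counts were few: the share of 39.1% in KO replicate 3 rested on 9 of 23 counts (exact Clopper-Pearson 95% interval 19.7% to 61.5%). The genes are also close copies, since 64.3% of the 75-base windows of the Hbb-bs transcript occur unchanged in that of Hbb-bt and 56.6% the other way round, and the sources used here do not state how reads with several alignments were counted. Summed into 1 feature, the 2 genes had log2 fold changes of 0.23 for P2+ against P2-, 0.41 for P2+ against WT, 0.17 for P2- against WT and -0.26 for KO against WT (adjusted p = 0.811, 0.657, 0.778 and 0.735).

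The adult α-globin genes were near the limit of detection. Hba-a1 had between 0 and 8 counts and Hba-a2 between 0 and 9 counts per library, with both at 0 in KO replicate 3. Hba-a1 was at or under 3 counts in 7 of 12 libraries and Hba-a2 in 8 of 12, and neither passed the expression filter of at least 1 CPM in at least 3 libraries in any comparison. The α-globin genes contributed 76 of the 2058 adult globin counts of all libraries, or 3.69% (each library weighted by its counts), and between 0% and 7.06% within a library. Between the 2 genes, 62.2% of the 75-base windows of the Hba-a1 transcript occur in Hba-a2 and 81% the other way round, so neither the split between them nor their sum can be taken as free of the handling of multiple alignments.

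No count fell on any of the 3 embryonic globin genes. Hbb-y, Hbb-bh1 and Hba-x had 0 counts in all 12 libraries, which allows up to 3 counts, or 0.207 to 0.288 CPM, in a library. Whether the TGACCA letters in the windows of Hbb-y and Hba-x bear on these 0 counts was not tested. Hbb-bh1 has no entry among the promoter windows used. Among the other globin-family genes listed for comparison, 8 were in the count table and none was abundant enough to be tested in any comparison, their summed level reaching 0.873 CPM at most.

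**Figure D2:**
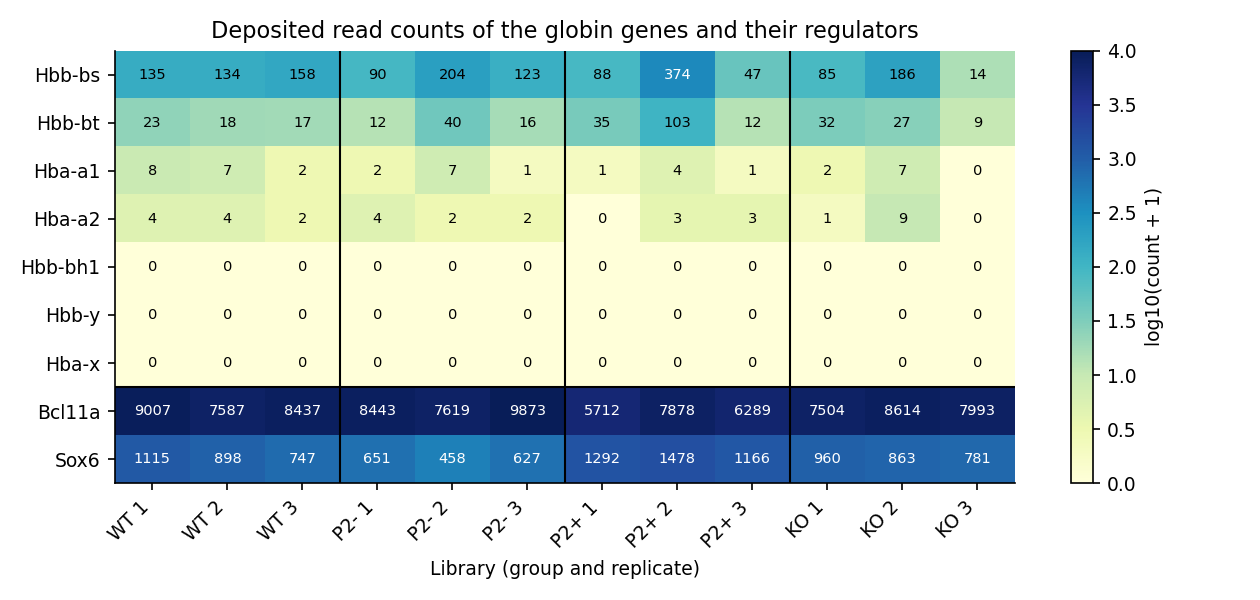
Deposited read counts of the 9 genes found (rows) in the 12 libraries (columns, grouped as WT, P2-, P2+ and KO); the number in each cell is the count and the colour its log10(count + 1). The 3 embryonic globin genes are at 0 throughout, the adult α-globin genes reach 9 counts at most, the adult β-globin genes vary from 9 to 374 counts, and Bcl11a and Sox6 have between 458 and 9873 counts in every library.

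Sox6 was the one tested gene among them that changed between P2+ and P2- PreMegEs. It stood at 108, 102 and 88.9 CPM in P2+ replicates 1, 2 and 3 and at 51.8, 44.0 and 44.2 CPM in P2- replicates 1, 2 and 3. Every P2+ library was thus above every P2- library, and within the same replicate number the ratio was 2.09, 2.32 and 2.01. The log2 fold change was 1.11 ± 0.10 (SE; 95% confidence interval 0.87 to 1.35; edgeR adjusted p = 7.32e-05), a 2.16-fold rise. A change was counted at an adjusted p under 0.05 and at least 2-fold, which Sox6 alone met of the 4 genes tested (Hbb-bs, Hbb-bt, Bcl11a and Sox6), against 12.7% of all 12836 genes tested. With the adjusted p alone, 2 of the 4 passed, Sox6 and Bcl11a, against 37.1% of all genes.

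Bcl11a moved the other way between the same fractions. Its levels were 478, 544 and 480 CPM in P2+ and 672, 732 and 697 CPM in P2- replicates 1, 2 and 3. All P2+ libraries lay below all P2- libraries, at 0.712, 0.743 and 0.688 of the P2- level within the same number. The log2 fold change was -0.47 ± 0.08 (95% confidence interval -0.65 to -0.29; edgeR adjusted p = 0.00187), which passed the test and stayed under 2-fold. Leaving out any single library, or both reporter libraries numbered 2, kept the log2 fold change of Sox6 between 1.05 and 1.19 and that of Bcl11a between -0.53 and -0.43, and both stayed past the test.

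**Figure D3:**
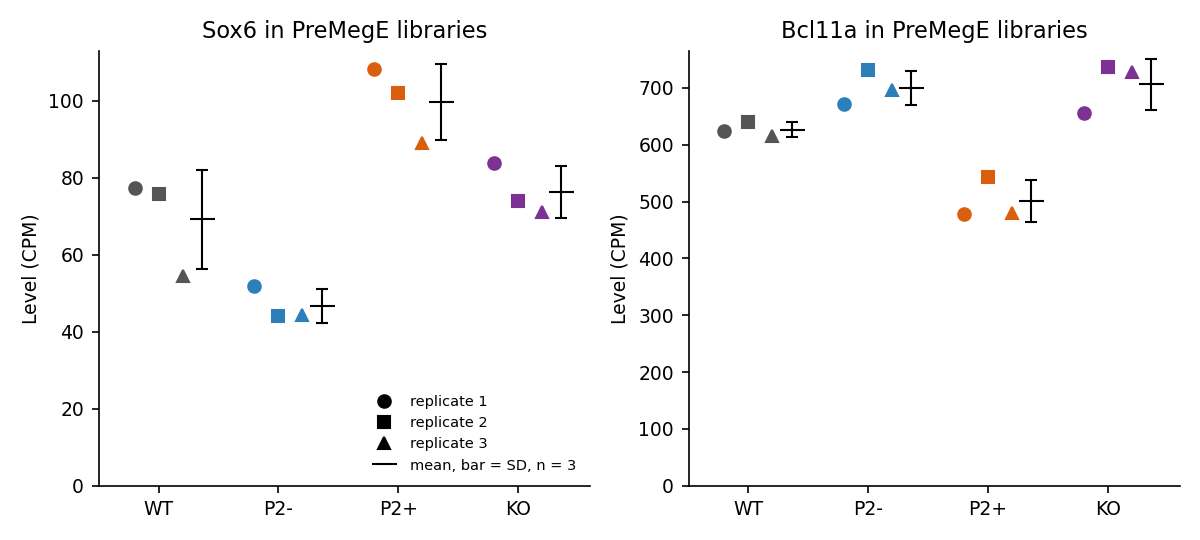
Level of Sox6 (left) and Bcl11a (right) in CPM on the vertical axis, starting at 0, for each PreMegE group; each symbol is 1 library (circle, square and triangle for replicates 1, 2 and 3) and the bar shows mean and SD, n = 3. P2+ holds the 3 highest Sox6 and the 3 lowest Bcl11a levels, and P2- the 3 lowest Sox6 levels.

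WT PreMegEs lay between the 2 fractions for both regulators. Sox6 in WT was 77.3, 75.8 and 54.4 CPM for replicates 1, 2 and 3, and Bcl11a was 624, 641 and 615 CPM. Against WT, the Sox6 level of P2+ PreMegEs was higher by 0.53 ± 0.13 on the log2 scale (edgeR adjusted p = 0.0201) and the Bcl11a difference was -0.32 ± 0.07 (adjusted p = 0.0148). Neither reached 2-fold, so 0 of 4 genes tested were counted as changed against 3.84% of all genes, and 2 of 4 passed the adjusted p alone against 16.5% of all genes. Both calls were close to the threshold, since without P2+ replicate 1 the adjusted p was 0.0610 for Sox6 and 0.0554 for Bcl11a, and Bcl11a also missed it without WT replicate 1 (0.0562), without WT replicate 2 (0.0657) and with edgeR's exact test (0.0960).

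Sox6 was lower in P2- than in WT PreMegEs, with a log2 difference of -0.56 ± 0.13 (edgeR adjusted p = 0.0175), and each P2- library was below each WT library. It was the only one of the 4 genes past the adjusted p, against 16.5% of all genes, and again none changed by 2-fold, against 4.68% of all genes. Without P2- replicate 3, WT replicate 1 or WT replicate 2 its adjusted p was 0.0551, 0.0805 and 0.0756. Bcl11a had a log2 fold change of 0.16 ± 0.07 (adjusted p = 0.130), although the 3 P2- libraries lay above the 3 WT libraries. P2+ and P2- were both compared with the same 3 WT libraries, and both reporter groups carry the reporter allele that WT lacks, so fraction and genotype cannot be told apart in these comparisons.

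In KO PreMegEs neither regulator passed the test. Sox6 was at 83.8, 73.8 and 71.1 CPM in KO replicates 1, 2 and 3, overlapping with WT, with a log2 fold change of 0.13 ± 0.11 (95% confidence interval -0.10 to 0.37; edgeR adjusted p = 0.495) that was -0.016 without WT replicate 3. Bcl11a was at 655, 737 and 727 CPM, above all WT libraries, with a log2 fold change of 0.16 ± 0.06 (0.04 to 0.29; adjusted p = 0.0845). The call on Bcl11a depended on the method, as its adjusted p was 0.0382 with DESeq2, 0.0479 with no expression filter and 0.0391 without KO replicate 1. Thus 0 of 4 genes changed, against 3.41% of all genes, and 0 of 4 passed the adjusted p alone, against 14.9% of all genes. At an unadjusted p under 0.05, 1 of the 4 genes was counted, Bcl11a, against 27.1% of all genes.

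**Figure D4:**
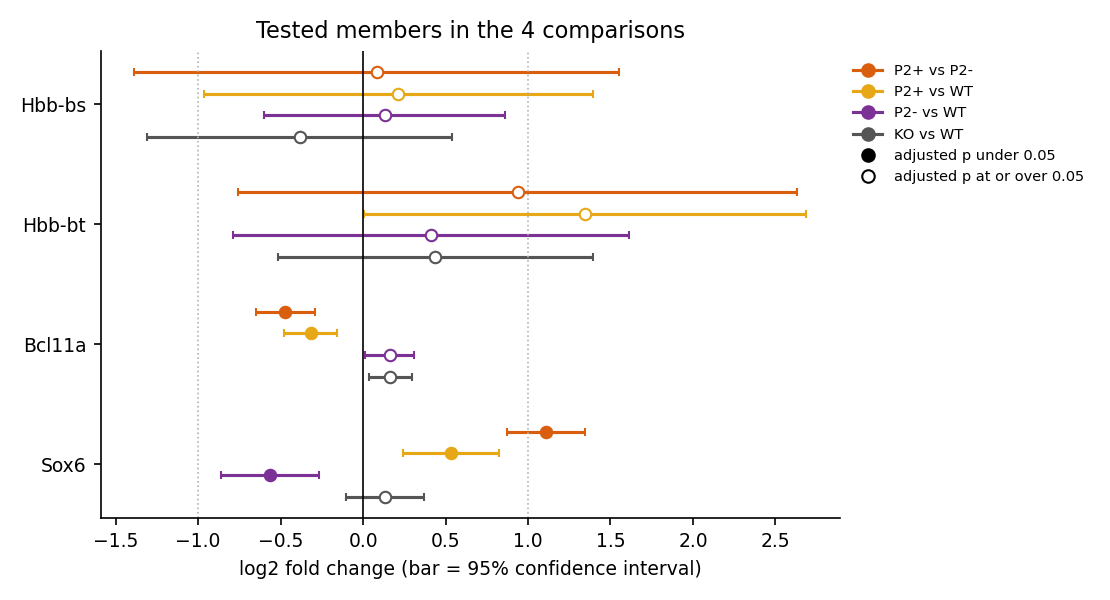
Log2 fold change (horizontal axis) of the 4 tested genes (vertical axis) in the 4 comparisons, shown by colour; bars are 95% confidence intervals, filled symbols have an adjusted p under 0.05 and dotted lines mark 2-fold. The intervals of the β-globin genes are wide and meet or come close to 0, while Sox6 and Bcl11a lie on opposite sides of 0 for P2+ against P2- (1.11 and -0.47).

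Ordered by mean level, Sox6 fell from P2+ (99.7 ± 9.85 CPM) to KO (76.2 ± 6.71), WT (69.2 ± 12.8) and P2- (46.7 ± 4.45; SD, n = 3). KO and WT did not differ beyond their spread, and the libraries of the other neighbours did not overlap. For Bcl11a the order was KO (706 ± 44.6 CPM), P2- (700.2 ± 30.0), WT (627 ± 13.2) and P2+ (501 ± 37.3), with KO and P2- inside each other's spread. Per length, Bcl11a averaged 38.0 to 53.6 RPKM and Sox6 3.15 to 6.72 RPKM over the groups, so Bcl11a was the most abundant of the 9 genes on this scale in every group.

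The adult globin levels overlapped between P2+ and P2- PreMegEs where those of Klf1 did not. Klf1, the activator of the adult β-globin gene, was at 354 to 437 CPM in P2- and 58.2 to 59.6 CPM in P2+ PreMegEs. It was lower in P2+ within all 3 replicate numbers, with a log2 fold change of -2.71 (edgeR adjusted p = 1.31e-06). The summed adult globin level was in contrast 10.4, 33.4 and 4.80 CPM in P2+ and 8.60, 24.3 and 10.0 CPM in P2- replicates 1, 2 and 3. Slc4a1, the anion exchanger of the red cell membrane, was highest in P2+ replicate 2 (54.6 CPM) and lowest in KO replicate 3 (5.01 CPM), the same libraries as for globin. Alas2, the erythroid enzyme of haem synthesis, had the same highest and lowest libraries, at 5.52 and 0.364 CPM.

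Across the 12 libraries, the 5 other genes whose log2 CPM was most like that of the summed adult globin genes were Slc4a1, Gm6305, Trim10, Nmi and Alas2, with Pearson's r between 0.88 and 0.96. Without P2+ replicate 2 and KO replicate 3, the libraries farthest from the median, r was 0.93 for Slc4a1 and 0.75 for Alas2, and 0.61 for Trim10. With a prior count of 0.5 in place of 2, the neutrophil granule gene Ngp (r = 0.89) entered the 5 and Alas2 left them. These genes were picked for likeness out of 13268, the libraries share their groups and depth, and no test is attached. The 10 mature neutrophil genes were high in 2 of the libraries with the most globin, with a summed level of 79.0 CPM in P2- replicate 2 and 59.4 CPM in P2+ replicate 2 and all 10 genes detected in each. The sum was 5.97 and 8.47 CPM in the other P2- libraries, 1.42 and 0.915 CPM in the other P2+ libraries, 4.90 to 5.39 CPM in WT and 0.455 to 8.30 CPM in KO, and S100a9 was at 0 in 2 KO libraries. In bulk libraries, fewer cells with a transcript and less of it per cell cannot be told apart. The gate was set against GR1, CD11B and Ter119, but the purity of the sorted cells was not examined here. The part of the neutrophil or late erythroid transcripts in the globin levels was not tested.

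**Figure D5:**
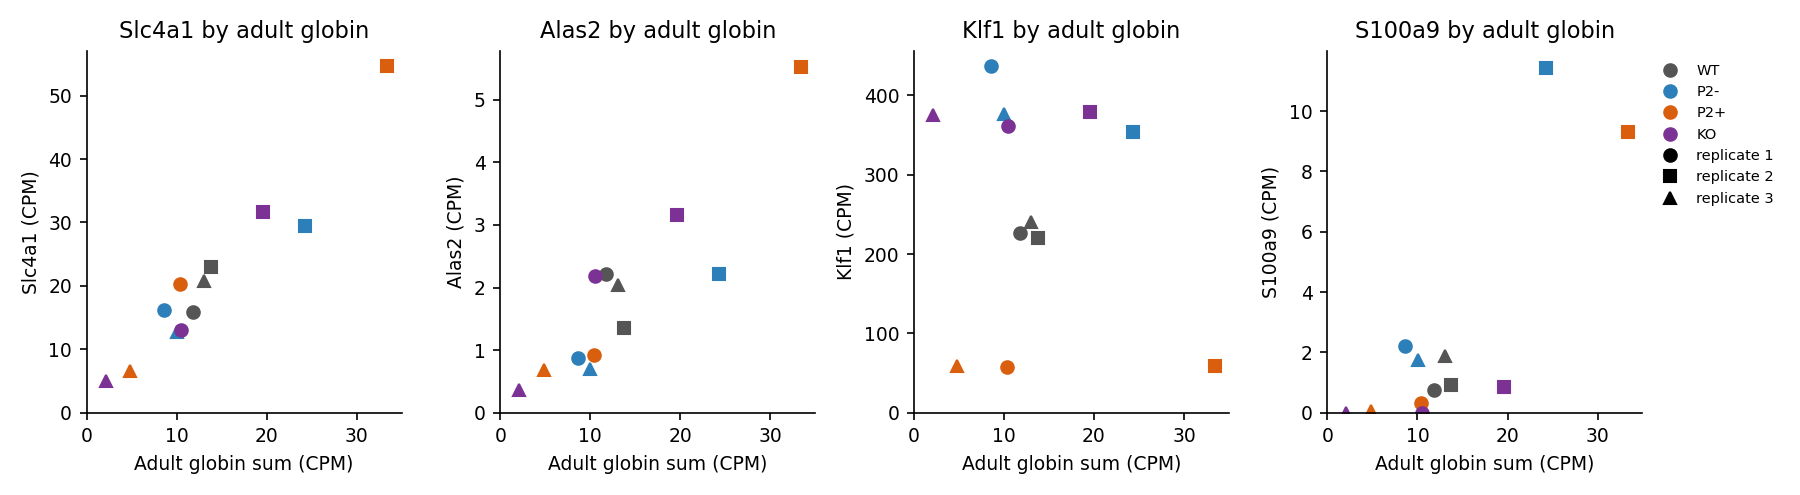
Level of Slc4a1, Alas2, Klf1 and S100a9 (vertical axes, CPM) against the summed adult globin level (horizontal axes, CPM) in the 12 libraries; colour marks the group and symbol shape the replicate. Slc4a1 increases with the globin level, Klf1 is low in the P2+ libraries at every globin level (58.2 to 59.6 CPM), and S100a9 is high in P2- and P2+ replicate 2 only.

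The genes that act on the globin loci were examined as lists. Of 16 activators and locus-looping factors tested between P2+ and P2- PreMegEs, 0 rose by 2-fold or more, against 9.54% of all genes tested, and 2 fell, 12.5% against 3.13%. With the adjusted p alone 3 rose, Zfpm1, Lmo2 and Lmo4, 18.8% against 20.1% of all genes, and 5 fell, 31.2% against 17% (median log2 fold change -0.09, against -0.02 for all genes tested). The 2 that fell by 2-fold or more were Klf1 and Ldb1, the latter the adaptor that bridges the β-globin enhancer and promoter, at 155 CPM in P2+ and 444 CPM in P2- (edgeR adjusted p = 1.54e-05). Gata1, the master regulator of erythroid genes, fell by less, from 271 to 184 CPM (log2 fold change -0.54, adjusted p = 0.000894). Of 28 repressors and cofactors of globin switching, 0 rose by 2-fold or more and 3 fell, 10.7% against 3.13% of all genes. With the adjusted p alone 2 rose, Dnmt1 and Nfix, 7.14% against 20.1% of all genes, and 8 fell, 28.6% against 17% (median -0.10). Zfpm1, Lmo2, Lmo4, Dnmt1 and Nfix are named after their values were seen. The 3 were Nfia, Myb and Klf3, and Myb, which keeps progenitors in cycle, went from 1546 CPM in P2- to 649 CPM in P2+ (log2 fold change -1.24, adjusted p = 5.95e-06). Mbd2, whose protein is part of the NuRD complex that BCL11A recruits, fell by less than 2-fold (log2 fold change -0.73, adjusted p = 0.000433).

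Of the genes related to the regulators, Sox13 and Sox5, the other 2 SoxD genes, moved in opposite directions between P2+ and P2- PreMegEs. Sox13 rose with Sox6, from 6.73 to 21.3 CPM (log2 fold change 1.68, edgeR adjusted p = 5.39e-05), while Sox5 fell from 9.05 to 2.76 CPM (log2 fold change -1.69, adjusted p = 0.00551). In KO against WT PreMegEs Sox5 rose (log2 fold change 1.40, adjusted p = 0.000261), while Sox6 itself did not pass the test. Of the 6 fetal-programme RNA-binding and chromatin genes, 2 were abundant enough to be tested and both rose by 2-fold or more, against 9.54% of all genes, Hmga2 from 5.88 to 22.8 CPM and Igf2bp2 from 11.4 to 30.8 CPM. Lin28a, Lin28b, Igf2bp1 and Igf2bp3 were too low to be tested. The 4 tested neighbours of the α-globin cluster, Snrnp25, Rhbdf1, Mpg and Nprl3, did not pass the test in any of the 4 comparisons, in which 14.9% to 37.1% of all genes passed, so 0 of 4 says little about these genes. Between KO and WT PreMegEs 0 of 16 activators and 0 of 28 repressors changed by 2-fold, against 3.41% of all genes, which says little for lists of this size, and with the adjusted p alone 5 of 16 activators were higher, 31.2% against 6.18% of all genes, and 1 was lower, 6.25% against 8.76%. Of 28 repressors 4 were higher, 14.3% against the same 6.18%, and 0 were lower. Klf1 rose there from 229 to 372 CPM (log2 fold change 0.69, adjusted p = 3.85e-07), and Hmga2 reached 12.6 CPM in KO (log2 fold change 1.33, adjusted p = 0.00349).

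Markers of other cells differed between P2+ and P2- PreMegEs beside Sox6 and Bcl11a. The late erythroid list had 8 of 18 tested genes lower in P2+ by 2-fold or more and 0 higher, against 3.13% of all genes lower and 9.54% higher. With the adjusted p alone 10 were lower, 55.6% against 17% of all genes, and 3 were higher, 16.7% against 20.1%, namely Sptb, Bpgm and Hemgn, named after their values were seen. Its summed level was 799.6 to 989 CPM in P2+, 2067 to 2377 CPM in P2-, 1468 to 1648 CPM in WT and 2086 to 2219.8 CPM in KO libraries. The mast cell and basophil list was higher by 2-fold or more in 3 of 3 tested genes, against 9.54% of all genes (summed over 7 genes, 84.3 to 137 CPM against 24.5 to 28.3 CPM), while the basophil genes Mcpt8 and Prss34 were at 0 in all P2- libraries and reached at most 0.153 and 0.229 CPM in P2+. The B cell and plasma cell list was higher by 2-fold or more in 4 of 6 tested genes, against the same 9.54% (summed over 8 genes, 44.2 to 100.1 CPM against 18.6 to 26.8 CPM). In each of these 3 lists, 1 of the genes counted had no library at 1 CPM in the group where it was low, so it passed the expression filter through the other group alone and had to differ, and no support is drawn from these counts. The mature neutrophil list had 0 of 3 tested genes changed, against 12.7% of all genes, and its other 7 genes were too low to be tested, so this count says little. The part of these transcripts in the levels of Sox6 and Bcl11a was not tested.

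Genes with a pattern like that of the regulators were found over the same 12 libraries, which share their groups and depth. For Sox6 they were Tnfrsf18, Itpkb, Bend4, 2700099C18Rik and RP23-21N15.2, with Pearson's r of 0.94 for each, and 0.89 to 0.93 without the 2 libraries farthest from the median, P2- replicates 2 and 3. For Bcl11a they were Por, Cpeb3, Ubr4, Riok3 and Mical3, with r of 0.98 for each and 0.94 to 0.95 without P2+ replicates 1 and 3. No test is attached to these values, since the genes were picked for them.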

How the data were processed

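The authors sequenced strand-specific poly(A) RNA as paired reads and aligned it to GRCm38 with Bowtie2 at its default settings. They deposited read counts per Ensembl gene from featureCounts, unnormalised. How reads that span exon junctions fared in this alignment was not tested. Per the labels' processing notes, SAMtools 0.1.19 and edgeR 3.8.5 were also used. The strand setting and how featureCounts treated reads with several alignments are not given in the sources used here. Group membership came from sample titles, all 12 columns were used, and nothing says that libraries of a group came from separate experiments beyond their pools of mice.

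Counts were scaled to CPM with TMM factors. Each comparison was fitted on its own 6 libraries, keeping genes that reached 1 CPM in 3 or more libraries, with edgeR 4.0.16 (R 4.3.3) quasi-likelihood tests and Benjamini-Hochberg adjustment over all genes tested, after checks on simulated data. A change required an adjusted p under 0.05 and at least 2-fold. Alternatives included DESeq2 1.42.0. Same-numbered P2+ and P2- libraries correlated in their deviations from the group means (r = 0.386, 0.572 and 0.405), so they were treated as paired in an alternative. The 10 genes and the gene lists were chosen with earlier results of these data known. Outside the lists, the 5 genes most like each pattern by Pearson's r of log2 CPM (prior count 2), up to 4 genes per list by smallest p and the defining markers were named.

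Some genes of the lists are not reported here by name.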

Additional observations from a re-analysis of the deposited data

How the results depend on the processing

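Of 243 log2 fold changes of Hbb-bt, Hbb-bs, Bcl11a and Sox6 recomputed under alternatives, 218 kept direction and side of the threshold, 5 gained and 8 lost an adjusted p under 0.05 in the same direction, and 12 turned direction, 1 of them with an adjusted p under 0.05 (Hbb-bs for P2+ against WT without P2+ replicate 2). With no minimum fold, the genes counted as changed became 2 for P2+ against P2-, 2 for P2+ against WT and 1 for P2- against WT. Leaving out 1 library gave 0 to 1 for P2+ against WT. With the replicate number as a block, Hbb-bs was at -0.17 for P2+ against P2- and -0.19 for P2+ against WT. The block also brought Bcl11a in KO against WT to an adjusted p of 0.0404. Same-numbered libraries of the 3 comparisons with WT were not paired (r from -0.085 to 0.159). Without both reporter libraries numbered 2, Hbb-bs was at -0.51 for P2+ against P2-, and summed with its near-identical copy, Hbb-bt in KO against WT was at -0.26. Leaving out 1 library moved Hbb-bs from -1.08 to 0.65 for P2+ against P2-, from -0.97 to 0.64 for P2+ against WT, from -0.44 to 0.39 for P2- against WT and from -1.30 to 0.12 for KO against WT. It moved Hbb-bt in P2+ against P2- from 0.0052 to 1.82, in P2- against WT from -0.47 to 0.74, and Sox6 in KO against WT from -0.016 to 0.22. The cause was not tested. Low counts limit the α-globin genes and Hbb-bt in KO replicate 3.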
